A study of Mus musculus with 12 samples.

Results

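Estrogen (E2) was added to fibroblasts whose estrogen receptor had been blocked beforehand with fulvestrant, and the open chromatin of these cultures was set against that of cultures given fulvestrant alone. The cells were hernia-associated fibroblasts (HAFs), primary fibroblasts of the lower abdominal muscle. The mice they came from, Arom-hum, express human aromatase from a transgene, the enzyme that converts androgen to estrogen, and develop fibrosis of this muscle with inguinal hernia. ATAC-seq, in which a transposase cuts accessible DNA and so marks it for sequencing, gave 12 libraries, of which 3 had received Estrogen (10 nM) with Fulvestrant (100 nM) and 3 Fulvestrant (100 nM) with no estrogen. All 6 of these libraries thus carried the transgene and the antagonist, and differed in a 1-hour exposure to E2. The cultures were first-passage cells of male mice that had been starved of serum in medium free of phenol red, received fulvestrant for 3 hours, and then E2 or its ethanol vehicle for 1 hour. The other 6 libraries, E2 alone and vehicle alone, were used to see whether regions and promoters described here were also called without the antagonist, and to set the effect of E2 on peak number and promoter share beside that without it. Regions were formed by merging the peaks of the 6 libraries wherever they overlapped or touched on chromosomes 1 to 19 and X, which gave 203991 merged regions of 431930 obtained in the same way from all 12 libraries.

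Estrogen receptor-α, encoded by Esr1, is a nuclear receptor that binds estrogen response elements in DNA once it holds its ligand, and recruits coactivators that open the surrounding chromatin. Fulvestrant competes for the ligand pocket, keeps the receptor from adopting its active shape and marks it for degradation. Estrogen can also act through receptors outside the classical pathway, among them the membrane receptor encoded by Gper1, which signals through kinases to the immediate early genes such as Fos and Egr1. A comparison of E2 plus fulvestrant with fulvestrant asks what remained of the response to E2 at the level of open chromatin when the classical route was blocked.

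Each library came as a list of peaks, with no read counts behind them, so a region was either called in a library or not. Every peak carried a fold enrichment, the pileup of transposase cuts at its highest point, the summit, over the local background. The rank of this value within its own list, given as a percentile with the strongest peak near the top, was used to set lists of unequal length side by side. In number of peaks, the replicate 1 libraries differed more from the other libraries than the treatments did from each other. The replicate 1 libraries held 60703 peaks with E2 plus fulvestrant and 73561 with fulvestrant. Replicates 2 and 3 held 35121 and 32507 peaks with E2 plus fulvestrant, and 30881 and 28792 with fulvestrant. A q-value of 0.05 or less was reached by 41.0% and 41.2% of the peaks of the replicate 1 libraries. In the other 4 libraries 6.31% and 6.73% of peaks with E2 plus fulvestrant reached it, against 23.7% and 14.8% with fulvestrant. The read depth behind the lists is unknown, and the smallest pileup that made a peak was 4 or 5 in these 6 libraries. On chromosome Y, which was left out of all comparisons, the replicate 1 libraries of the 4 treatments listed 22 to 36 peaks and the others 854 to 1148. Values are therefore given with and without replicate 1 wherever they rest on it.

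**Figure D1:**
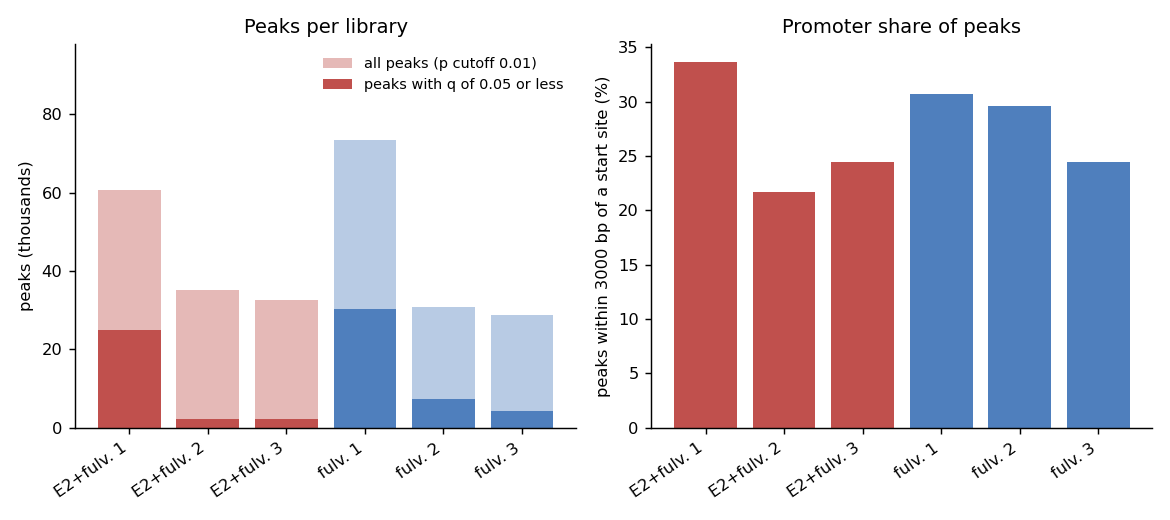
Left, peaks per library (axis in units of 1000), with all peaks as pale bars and those with a q-value of 0.05 or less as full bars. Right, percent of peaks within 3000 bp of a start site, for the same 6 libraries (E2 plus fulvestrant red, fulvestrant blue, numbered by replicate). The replicate 1 libraries of both treatments hold the most peaks, 60703 and 73561, and the treatments overlap in each measure.

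The sequences under regions called in only one of the groups are shown first, since the comparison turns on these regions. For fulvestrant they are the first promoter and the first distal region by rank and the first region without annotated repeats, and for E2 plus fulvestrant the first distal region and the first region without annotated repeats. A promoter region lay within 3000 bp of an annotated start site. Each line gives 201 bases of the plus strand of GRCm38, taken from the RefSeq assembly, around the summit of the strongest peak. The capital in the middle is the summit base and any run of capitals is a motif. The first 2 belong to E2 plus fulvestrant and the last 3 to fulvestrant.
Zfp989, chr4:146960678-146960878: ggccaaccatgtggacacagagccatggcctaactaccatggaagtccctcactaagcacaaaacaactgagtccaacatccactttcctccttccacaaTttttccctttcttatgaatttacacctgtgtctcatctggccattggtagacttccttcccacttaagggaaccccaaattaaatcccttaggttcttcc
Rrbp1, chr2:143964574-143964774: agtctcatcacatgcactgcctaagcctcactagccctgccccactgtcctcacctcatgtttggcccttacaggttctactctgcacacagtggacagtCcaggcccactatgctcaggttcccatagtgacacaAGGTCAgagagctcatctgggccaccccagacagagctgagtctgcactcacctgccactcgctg
Gm47995, chr1:151199516-151199716: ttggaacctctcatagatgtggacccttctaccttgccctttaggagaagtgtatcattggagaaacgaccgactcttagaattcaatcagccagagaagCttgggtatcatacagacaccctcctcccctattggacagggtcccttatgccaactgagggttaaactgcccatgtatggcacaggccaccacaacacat
Mageb2, chrX:91129966-91130166: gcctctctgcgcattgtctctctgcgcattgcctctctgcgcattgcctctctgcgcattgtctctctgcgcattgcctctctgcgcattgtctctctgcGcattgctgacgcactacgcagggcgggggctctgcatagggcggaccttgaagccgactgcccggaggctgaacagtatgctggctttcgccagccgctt
Cd36, chr5:17786825-17787025: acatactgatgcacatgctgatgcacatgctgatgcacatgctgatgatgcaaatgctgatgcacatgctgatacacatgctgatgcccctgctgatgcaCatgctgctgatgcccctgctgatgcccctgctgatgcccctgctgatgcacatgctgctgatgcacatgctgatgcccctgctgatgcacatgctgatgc
Of these 5 windows only that at Rrbp1 held a searched motif, the AGGTCA site that forms either arm of an estrogen response element, and such a site occurred in 13.1% of windows of this length over all merged regions. The window at Cd36 consists largely of a short unit repeated in tandem, and that at Mageb2 does so only until just past its summit. At Cd36 these copies are not marked as repeats in the assembly.

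Regions called in every library of one group and in none of the other were rare. With E2 plus fulvestrant 90 of 203991 regions were called in 3 of 3 libraries and in 0 of 3 fulvestrant libraries (0.0441%). In the opposite direction 221 regions were called in 3 of 3 fulvestrant libraries and in 0 of 3 E2 plus fulvestrant libraries (0.108%). In contrast, 1002 regions were called in all 6 libraries and 167116 in a single library. Of the regions that were not evenly called, 89291 were called in more E2 plus fulvestrant than fulvestrant libraries and 92623 in fewer. No test across regions was available for these counts, since each region gave only presence or absence in 3 libraries a side. Counting only peaks with a q-value of 0.05 or less left 9 and 54 regions, and leaving out any 1 library gave 129 to 968 and 305 to 1488, with the fulvestrant count below the other without E2 plus fulvestrant replicate 1, 2 or 3.

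Peak number and promoter share did not separate the treatments. The mean number of peaks was 42777 ± 15579 (SD, n = 3) with E2 plus fulvestrant and 44411 ± 25266 (SD, n = 3) with fulvestrant, and the ranges overlapped. The difference of the log2 numbers was 0.03 (exact two-sided permutation test p = 0.9, adjusted over 2 tests 0.9), where 3 libraries against 3 cannot give a p below 0.1. Within replicate 1 the log2 difference was -0.28 and within replicates 2 and 3 it was 0.18. With peaks of a q-value of 0.05 or less alone it was -0.99, and with a -log10 p of at least 3 it was -0.15. The share of peaks at promoters was 33.6%, 21.7% and 24.5% with E2 plus fulvestrant and 30.8%, 29.6% and 24.5% with fulvestrant. The mean difference was -1.68 percentage points (exact two-sided permutation test p = 0.8, adjusted 0.9), with 2.88 points in replicate 1 and -3.96 points over replicates 2 and 3. The effect of E2 on log2 peak number under fulvestrant did not differ detectably from its effect without the antagonist, which was -0.56, by an exact permutation test of the difference of 0.59 (p = 0.41, adjusted over 2 tests 0.73). For the promoter share the difference between these effects was 2.78 points (exact permutation p = 0.73).

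**Figure D2:**
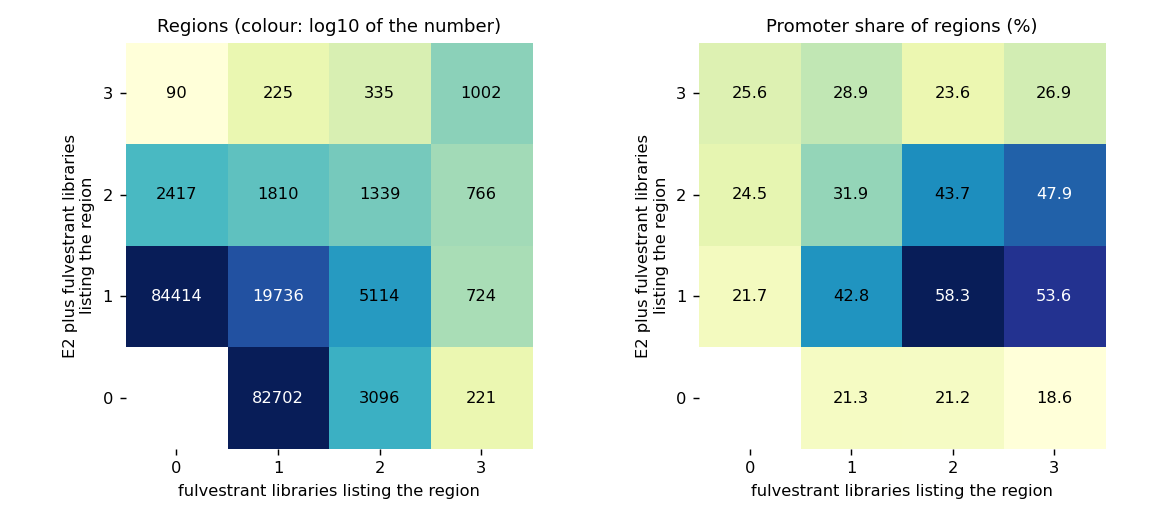
Number of merged regions by the number of E2 plus fulvestrant libraries (vertical axis, 0 to 3) and fulvestrant libraries (horizontal axis, 0 to 3) that called them (left, coloured by log10 of the number), and the percent of each class at promoters (right). The corners for one group only hold 90 and 221 regions, and 1002 regions were called in all 6 libraries.

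Libraries of the same treatment did not share more of their peaks than libraries of different treatments. The Jaccard index, the bases shared by 2 lists over the bases covered by either, averaged 0.0514 over the 6 pairs of the same treatment and 0.0711 over the 9 pairs of different treatments (exact one-sided permutation test p = 0.7, smallest possible 0.1). The highest index of all pairs was 0.227, between the replicate 1 libraries of both treatments. Pairs of different treatment that shared a replicate number had an index of 0.227, 0.0435 and 0.0600 in replicates 1, 2 and 3, against a mean of 0.0515 for those that did not, so that only replicate 1 stood clearly above it. Without replicate 1, the libraries of one treatment exceeded those of different treatments by 0.0035.

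Strong peaks were shared across the treatments in replicate 1 and much less in the others. Of the peaks in the top 10 percentile points of the first E2 plus fulvestrant library, 99.7% overlapped a peak of the first fulvestrant library. Of these 6077 peaks, 78.8% lay at promoters. In the reverse direction the share was 99.1%. In replicate 2 the same shares were 23.5% and 24.7%, and in replicate 3 they were 31.2% and 39.6%. Tied values made these steps unequal, with 4822 peaks in the top step of the second E2 plus fulvestrant library and 3114 in that of the second fulvestrant library. These peaks lay at promoters in 18.7% and 57.0% of cases. Of the peaks in the lowest 10 percentile points, 12.7% and 9.55% were shared within replicate 1 and between 3.70% and 7.71% within replicates 2 and 3. The second fulvestrant library was intermediate, as 54.2% of its peaks with a q-value of 0.05 or less were called in the first E2 plus fulvestrant library, but 19.8% and 24.6% in the second and the third. These comparisons by rank were added after the lists had been examined.

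**Figure D3:**
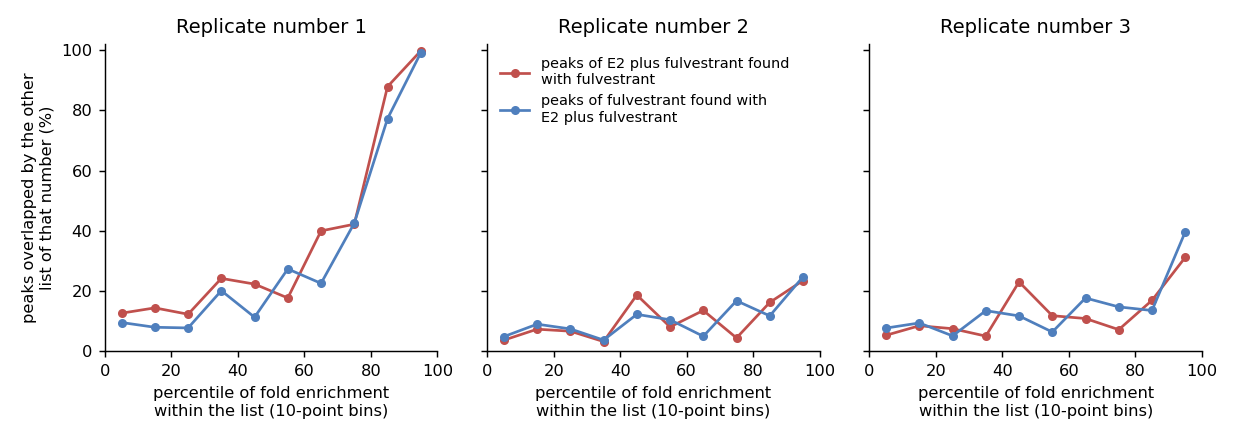
Percent of peaks called also in the library of the other treatment with the same replicate number (vertical axis) by percentile of fold enrichment within a list, in steps of 10 percentile points (horizontal axis), one panel per replicate number, coloured by the treatment of the list. Tied values make the steps unequal in number of peaks. In replicate 1 the share is 12.7% and 9.55% in the weakest step and 99.7% and 99.1% in the strongest, whereas in replicates 2 and 3 the strongest step lies between 23.5% and 39.6%.

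The regions called in one group only stood lower in their lists than the regions called in all 6 libraries, and most of them were distal. Promoters made up 23 of the 90 E2 plus fulvestrant regions (25.6%, 95% Wilson interval 17.7 to 35.4) and 41 of the 221 fulvestrant regions (18.6%, 14.0 to 24.2). Among regions called in all 6 libraries the share was 26.9% (24.3 to 29.8), and over all regions it was 25%. These intervals cover counting error only. The median over regions of the lowest percentile among the 3 libraries was 21.0 for E2 plus fulvestrant and 29.1 for fulvestrant, against 60.8 over all 6 libraries for the shared regions. A q-value of 0.05 or less was reached in at least 1 library by 35 of the 90 and 150 of the 221 regions, and in all 3 libraries by 0 and 14. Median widths were 534 and 500 bp, against 747.5 bp for the shared regions and 232 bp for all regions. The summit lay in an annotated repeat in 43.3% and 60.6%, compared with 51.3% of shared regions and 30.1% of all regions. Within genes, 11 of the 90 regions lay in exons and 40 in introns, and 8 and 78 of the 221. The remaining 39 and 135 regions were intergenic.

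Estrogen response elements were searched within 100 bp of summits on both strands. The full element was read as GGTCA followed after 3 bases by TGACC, a pattern that is the same on both strands. A single arm was read as AGGTCA, the AP-1 element of Fos and Jun dimers as TGACTCA or TGAGTCA, and the CTCF core by its usual consensus. A single AGGTCA site may overlap a full element. The full element occurred in 0 of 90 E2 plus fulvestrant regions, which allows a share of up to 3.33%, in 0 of 221 fulvestrant regions, allowing up to 1.36%, and in 0 of 1002 shared regions, allowing up to 0.299%. Over all regions 60 held one (0.0294%), and a share of that size was not detectable with this number of regions in any of the 3 classes. The AGGTCA site occurred in 7 of 90 (7.78%), 22 of 221 (9.95%) and 90 of 1002 (8.98%), and in 13.1% of all regions. The AP-1 element occurred in 4 (4.44%), 8 (3.62%) and 27 (2.69%), and in 4.10% of all regions. The CTCF core occurred in none of the 3 classes and in 637 of all regions (0.312%).

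Across whole lists, the 4 motifs at distal summits were compared between the treatments by a test that cannot give p below 0.1 with 3 libraries against 3. The full element was found at 21, 6 and 10 distal summits with E2 plus fulvestrant (0.0521%, 0.0218% and 0.0407%) and at 16, 1 and 3 with fulvestrant (0.0314%, 0.00460% and 0.0138%). It was more frequent with E2 plus fulvestrant in each of the 3 replicate numbers, and the second fulvestrant library was the lowest of all. The mean difference of 0.022 points gave p = 0.2 in the exact two-sided permutation test (adjusted over 4 motifs 0.4). The AGGTCA site was found at 13.0%, 12.4% and 12.9% of distal summits with E2 plus fulvestrant and 12.9%, 12.1% and 12.4% with fulvestrant. Its difference of 0.327 points was also positive in 3 of 3 replicate numbers (exact permutation p = 0.2, adjusted 0.4). With peaks of a q-value of 0.05 or less alone, the difference was 0.0052 points for the full element and -0.905 points for the AGGTCA site. The AP-1 element was found at 5.55%, 3.22% and 3.42% against 5.23%, 3.65% and 2.97% (exact permutation p = 0.8, adjusted 0.8). The CTCF core was found at 0.561%, 0.0836% and 0.110% against 0.473%, 0.133% and 0.0736% (exact permutation p = 0.8, adjusted 0.8). Replicate 1 was the highest library of both treatments for AP-1 and for CTCF.

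Among promoter regions called with E2 plus fulvestrant only, the first by rank lay at Gm8212, a predicted gene (chr14:44198693-44199159, 1265 bp downstream of its start site, in an exon). Its fold enrichment was 4.27, 3.79 and 3.46 in the 3 libraries, at percentiles of 79.3, 90.0 and 72.7 of their lists, and it was absent from the 3 fulvestrant lists. The second lay at Zfp981, a zinc finger gene (chr4:146513292-146513852, 1348 bp upstream of the start site), with 3.98, 3.21 and 3.90, and was also called in 3 E2 libraries and 1 vehicle library. The third lay in an intron of Rrbp1, which encodes a ribosome-binding protein of the endoplasmic reticulum (chr2:143964355-143964847), with 3.74, 3.18 and 3.39. Next came Olfr1269, an olfactory receptor gene, Oaf (chr9:43222176-43222703; 3.60, 3.18 and 3.10), Gm3486, Gm3755 and Serpina1a, which encodes an α1-antitrypsin (chr12:103864557-103865150; 2.90, 3.15 and 2.97). For Gm3486 the start site within 3000 bp was that of another transcript, Gm2878, at 2644 bp. A q-value of 0.05 or less was reached in 2 libraries by the regions at Zfp981 and Gm3486, and in 1 or none by the other 6.

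The distal regions called with E2 plus fulvestrant only began with Zfp989, another zinc finger gene of chromosome 4 (chr4:146960389-146960948, 11307 bp upstream). Its fold enrichment was 4.07, 3.31 and 3.46, and it was called in 1 E2 and 0 vehicle libraries. The region in an intron of Sez6l, a gene of neuronal membrane proteins (chr5:112464822-112465675), had 4.24, 3.57 and 3.12. The others named by rank were nearest to 1700013G24Rik, Gm17631, Fam89a and Serpina3f, a serine protease inhibitor gene. None of the 14 named regions lay nearest to Esr1, a classical estrogen receptor target or a collagen gene. With 14 regions and 21755 protein-coding genes this absence was likely beforehand, and nothing is concluded from it.

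Regions called with fulvestrant only stood somewhat higher in their lists. The first promoter region lay 1110 bp downstream of the start site of Gm47995 (chr1:151199248-151199868), with 3.89, 3.82 and 4.40 and percentiles of 76.0, 76.7 and 94.7, and passed a q-value of 0.05 in all 3 libraries. The region 2238 bp downstream of the start site of Krt31, a hair keratin gene (chr11:100048094-100048532), had 3.61, 4.10 and 3.31. That at Dtwd2, on chromosome 18, had 3.61, 5.12 and 3.31. For the other 5 named promoter regions the nearest protein-coding genes, Adam6a, Hnf4g, Eif4ebp1, Zfp386 and Tpd52, lay farther off. The start sites that made them promoters were those of the immunoglobulin segments Ighv1-25 and Ighv1-82 and of the transcripts Gm23976, Gm9731 and Gm37616.

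The first distal region by rank called with fulvestrant only lay on chromosome X between genes, in a stretch annotated entirely as repeat, with Mageb2 as the nearest protein-coding gene at 201685 bp (chrX:91129783-91130227). It had a fold enrichment of 4.96, 4.10 and 5.79 and percentiles of 86.2, 84.1 and 98.6. The region 42975 bp downstream of the start site of Stim2, which encodes a calcium sensor of the endoplasmic reticulum (chr5:54158547-54159116), had 4.35, 4.61 and 4.13 and was called in 3 E2 and 2 vehicle libraries. That in an intron of Cd36, a fatty acid transporter gene (chr5:17786053-17787044), had 4.07, 4.10 and 4.96 and was called in 2 E2 and 2 vehicle libraries. The remaining named regions were nearest to Zfp386 (chr12:115683790-115684622; 4.26, 5.66 and 5.0), to Ldah, which encodes a lipid droplet hydrolase, and to Nkx2-9, a homeobox gene. The 14 regions with a q-value of 0.05 or less in all 3 fulvestrant libraries were nearest to Gm47995, Adam6a, Mageb2, Stim2, Zfp386, Cd36, Ldah, Pde4d, Myh15, Med13l, Tcp10c, Fam241a, Gria4 and Gm10324.

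The genes nearest to one-group regions were mostly represented once. The 90 E2 plus fulvestrant regions were nearest to 87 protein-coding genes at a median distance of 18816.5 bp from the start site, with 28 regions over 50 kb away. The 221 fulvestrant regions were nearest to 204 genes at a median of 38671 bp, with 96 over 50 kb away. There were 5 genes near regions of both kinds, namely Gm10139, Gm21863, Spock1, Zfp386 and Zfp981. Zfp386 was nearest to 8 fulvestrant regions and 2 E2 plus fulvestrant regions, and it borders the cluster of immunoglobulin heavy chain variable segments on chromosome 12 (chr12:113578504-116000461). This cluster of 2.42 Mb held 10 of the 221 fulvestrant regions (4.52%), 2 of the 90 E2 plus fulvestrant regions (2.22%) and 23 of the 1002 shared regions (2.30%), but 412 of all regions (0.202%). Its peak counts were 166, 124 and 121 with E2 plus fulvestrant and 201, 133 and 172 with fulvestrant. The cluster was picked out after its regions had been seen.

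Called in one group under fulvestrant, the same regions were called unevenly in the E2 and vehicle libraries, which the choice of regions had not used. Of the 90 E2 plus fulvestrant regions, the E2 libraries called 36.7%, 26.7% and 20% and the vehicle libraries 27.8%, 50% and 23.3%. Of the 221 fulvestrant regions, the E2 libraries called 44.3%, 32.6% and 34.8% and the vehicle libraries 27.1%, 55.2% and 19.9%. Over all regions these libraries called 16.4%, 6.05% and 4.80% with E2 and 12.6%, 12.4% and 11.7% with vehicle. The ranges of E2 and vehicle overlapped for both kinds of region. Among the 90 regions, 22 were called in more E2 than vehicle libraries, 31 in fewer and 37 in equal numbers, with 19 called in none. Among the 221 regions these counts were 74, 57 and 90, with 37 called in none. A full split of E2 against vehicle was seen at 3 of the 90 regions. That nearest to Cdh7, a cadherin gene, was called in 3 E2 and 0 vehicle libraries, and those nearest to Thsd1 and Zscan4b in 0 E2 and 3 vehicle libraries. Of the 221 regions, 3, nearest to Gria4, A230072I06Rik and Gm13212, were called in 3 vehicle and 0 E2 libraries, and 1, nearest to Fstl4, showed the reverse. Among the 1002 shared regions, 194 were called in more E2 than vehicle libraries, 89 in fewer and 719 in equal numbers. A full split was seen at 4 of these with E2 and at 0 with vehicle. Such counts were not made over all regions, so no background rate is known for the splits named here.

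**Figure D4:**
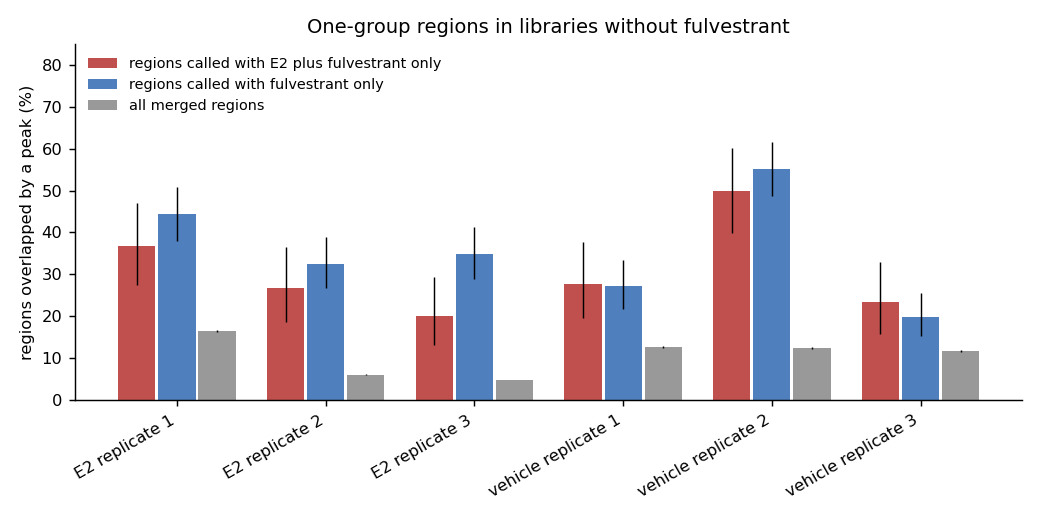
Percent of the 90 regions called with E2 plus fulvestrant only, the 221 called with fulvestrant only and all merged regions (red, blue and grey bars, with 95% Wilson intervals for counting error) that were also called in each of the 3 E2 and 3 vehicle libraries. The second vehicle library is the highest for both kinds of region, at 50% and 55.2%, and E2 and vehicle libraries overlap.

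Among regions called in all 6 libraries, no region passed the test of a difference in rank. The percentiles of the 1002 shared regions were turned into normal scores and fitted with limma. With Benjamini-Hochberg adjustment over the 1002 regions, 0 passed an adjusted p of 0.05 as higher with E2 plus fulvestrant (0%) and 0 as lower (0%). The smallest adjusted p was 0.999, and 34 regions had an unadjusted p under 0.05, 18 of them higher and 16 lower. The difference was positive at 588 regions and negative at 414, with a median of 0.06 in normal score. At promoters 160 were higher and 110 lower (median 0.05), and at distal regions 428 and 304 (median 0.07). The percentiles of the 2 groups did not overlap at 20 regions that were higher and 24 that were lower. An exact two-sided permutation test gives p = 0.1 for such a split at any single region. Many are thus possible among 1002 regions without an effect.

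The shared regions of smallest p are given by their percentiles, and none of them passed. The region nearest to Gm31371 (chr8:20024406-20025006) stood at 36.7, 49.5 and 58.2 with E2 plus fulvestrant and at 8.13, 13.0 and 11.4 with fulvestrant, a difference in normal score of 1.19 ± 0.30 (SE, adjusted p = 0.999 by limma). The region nearest to Alyref2, an mRNA export factor gene (chr1:171514961-171515781), stood at 88.9, 94.4 and 94.3 against 75.2, 45.2 and 38.4. That nearest to 1600014C10Rik (chr7:38175874-38176507) stood at 62.6, 81.0 and 82.6 against 37.0, 46.2 and 20.2. In the opposite direction, the region nearest to 4930572O03Rik (chr5:15659496-15659925) stood at 1.78, 11.3 and 11.7 against 76.3, 45.2 and 94.6, a difference of -2.24 ± 0.52 (SE, adjusted p = 0.999 by limma). The region nearest to Gm4846 (chr1:166493384-166494238) stood at 52.0, 70.4 and 39.1 against 86.6, 95.5 and 91.8. The region nearest to Eps8, a gene of an actin-capping and receptor-signaling protein (chr6:137621343-137621749), stood at 70.5, 35.5 and 39.1 against 91.4, 84.1 and 95.9. At each of these 6 regions the percentiles of the 3 libraries of one treatment lay on one side of the others. This follows largely from their choice by smallest p and is no separate evidence of a difference.

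At the level of genes, a promoter was called where a summit lay within 3000 bp of any start site of a protein-coding gene. Of 21755 genes, 50 were called in 3 of 3 E2 plus fulvestrant and 0 of 3 fulvestrant libraries (0.23%), and 40 in the opposite direction (0.184%). In contrast, 480 were called in all 6 libraries (2.2%). A gene was called in more E2 plus fulvestrant libraries in 4404 cases (20.2%) and in fewer in 6168 (28.4%). The summits of one gene often lay at different places. The 3 libraries shared one merged region at 5 of the 50 genes, Gm8212, Olfr1269, Gm3755, Apol11b and Sult4a1, and at 2 of the 40, Cnn1 and Pcdhb6. By rank the 50 were led by Gm8212 and Lats2, a kinase of the Hippo pathway (4.13, 3.31 and 3.74), followed by Alox5ap, which serves leukotriene synthesis (3.80, 3.21 and 3.33), Atp2b4, B4galnt3, Olfr1269, Zfp626 and Fbxw4. The 40 were led by Tmem229a (3.61, 4.10 and 3.72), Olfr1349, Pcdhb6, Rasl2-9 and Mlxipl, a glucose-responsive transcription factor (3.16, 3.10 and 3.15). With peaks of a q-value of 0.05 or less alone, 0 and 5 genes were called in place of 50 and 40, and without the first E2 plus fulvestrant library 124 and 615 were called. Of the 50 genes, 9 were called in more E2 than vehicle libraries and 22 in fewer, and of the 40, 6 and 22. Genes at large were also called less with E2, at 63.1%, 25.5% and 17.3% against 58.1%, 44.5% and 54.0% with vehicle. Of all 21755 genes, 33 were called in 3 E2 and 0 vehicle libraries and 126 in 0 E2 and 3 vehicle libraries.

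The receptors for estrogen had promoter peaks in some libraries of both treatments. Esr1 was called in the second and the third E2 plus fulvestrant libraries, with a fold enrichment of 4.73 and 5.56, and in the second fulvestrant library with 3.96. Esr2, which encodes estrogen receptor-β, was called in the first E2 plus fulvestrant library with 4.75, and in all 3 fulvestrant libraries with 3.61, 3.59 and 3.72. Gper1 was called in the third library of both treatments, with 2.65 and 3.03. Of the 6 receptors, which include the related orphan receptors, 2 were called in more E2 plus fulvestrant than fulvestrant libraries and 2 in fewer.

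The classical estrogen receptor targets were called in more or fewer libraries about as often as genes at large. Of 20 genes, 4 were called in more E2 plus fulvestrant libraries (20%) and 6 in fewer (30%), against 20.2% and 28.4% of all genes, and the median difference was 0 libraries for both. Their share called was 70%, 35% and 15% with E2 plus fulvestrant and 55%, 40% and 30% with fulvestrant, where all genes gave 60.7%, 20.2% and 22.3% and 63.3%, 29.7% and 19.5%. Greb1, a coactivator of the receptor that estrogen induces in many cells, was called in 1 library of each treatment, with 3.30 in the second E2 plus fulvestrant and 3.31 in the third fulvestrant library. Pgr, the progesterone receptor gene, was called in none of the 6 libraries, although 2 E2 and 2 vehicle libraries called it. Kcnk5, a potassium channel gene, was called in 2 E2 plus fulvestrant libraries (3.07 and 3.31) and in none with fulvestrant, and was called in 3 E2 and 0 vehicle libraries. Ccn5 was also called in 2 E2 plus fulvestrant libraries (2.92 and 2.94) and in none with fulvestrant, but in 0 E2 and 0 vehicle libraries. Of all 21755 genes, 33 were called in 3 E2 and 0 vehicle libraries, and 126 showed the reverse. Susd3 was called in 3 libraries with E2 plus fulvestrant (2.37, 2.84 and 2.80) and in 1 with fulvestrant (4.10). In the opposite direction, Ccnd1, which encodes cyclin D1, and Xbp1, a transcription factor of the unfolded protein response, were called in 1 library with E2 plus fulvestrant (3.12 and 5.92) and in 3 with fulvestrant (3.85, 4.10 and 3.31 for Ccnd1, and 7.43, 3.59 and 2.48 for Xbp1).

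Immediate early genes, which respond to kinase signals within minutes, were called in fewer E2 plus fulvestrant libraries. Of 21 genes, 15 were called in fewer (71.4%) and 1, Jun, in more (4.76%), against 28.4% and 20.2% of all genes, with a median difference of -1 library against 0 over all genes. By library, 21, 3 and 6 of them were called with E2 plus fulvestrant and 21, 16 and 11 with fulvestrant, so that the groups met in replicate 1. Over all genes the shares called were 60.7%, 20.2% and 22.3% with E2 plus fulvestrant and 63.3%, 29.7% and 19.5% with fulvestrant. Fos was called in the first E2 plus fulvestrant library (6.08) and in 2 fulvestrant libraries (8.09 and 2.97). Atf3, a stress-responsive partner of Jun, was called in the first E2 plus fulvestrant library (13.13) and in all 3 fulvestrant libraries (12.39, 8.50 and 3.72). Fosb followed the same pattern with 4.91 against 5.08, 4.66 and 3.70, as did Dusp1, a phosphatase that ends MAPK signals, with 6.67 against 5.15, 3.69 and 3.12. Egr1 was called in 2 E2 plus fulvestrant libraries (3.85 and 3.87) and in 3 with fulvestrant (5.01, 2.19 and 3.12). Jun itself had 11.15, 2.70 and 3.43 with E2 plus fulvestrant, and 9.74 and 6.82 in the first and second fulvestrant libraries.

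Housekeeping genes were also called in fewer E2 plus fulvestrant libraries more often than in more, and their difference from the immediate early list was not tested. Of 20 housekeeping genes, 9 were called in fewer E2 plus fulvestrant libraries (45%) and 1 in more, with 100%, 10% and 25% called against 100%, 60% and 25%. Of 25 cell cycle genes 10 were called in fewer (40%) and 3 in more (12%), against 28.4% and 20.2% of all genes. Of 20 heat shock and hypoxia genes 6 were called in fewer (30%), near the share of all genes, and 1 in more (5%). The second fulvestrant library called 52% of the cell cycle genes against 8% in the second E2 plus fulvestrant library, and 43.1% of its peaks with a q-value of 0.05 or less lay at promoters against 22.4%. The part of this difference between the second libraries in the immediate early count was not tested. Without the antagonist, the immediate early genes were called at 95.2%, 28.6% and 33.3% with E2 and at 100%, 38.1% and 100% with vehicle. Housekeeping genes were called there at 100%, 35% and 25% with E2 and at 85%, 50% and 100% with vehicle. All genes gave 63.1%, 25.5% and 17.3% with E2 and 58.1%, 44.5% and 54.0% with vehicle. In the replicate 1 pair, where all 21 were called in both libraries, the median log2 ratio of E2 plus fulvestrant over fulvestrant was -0.10 at the strongest promoter peak, with 8 genes higher and 13 lower. Over 11527 genes called in both of these libraries it was -0.05 (interquartile range -0.27 to 0.16), and for the housekeeping genes also -0.05.

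**Figure D5:**
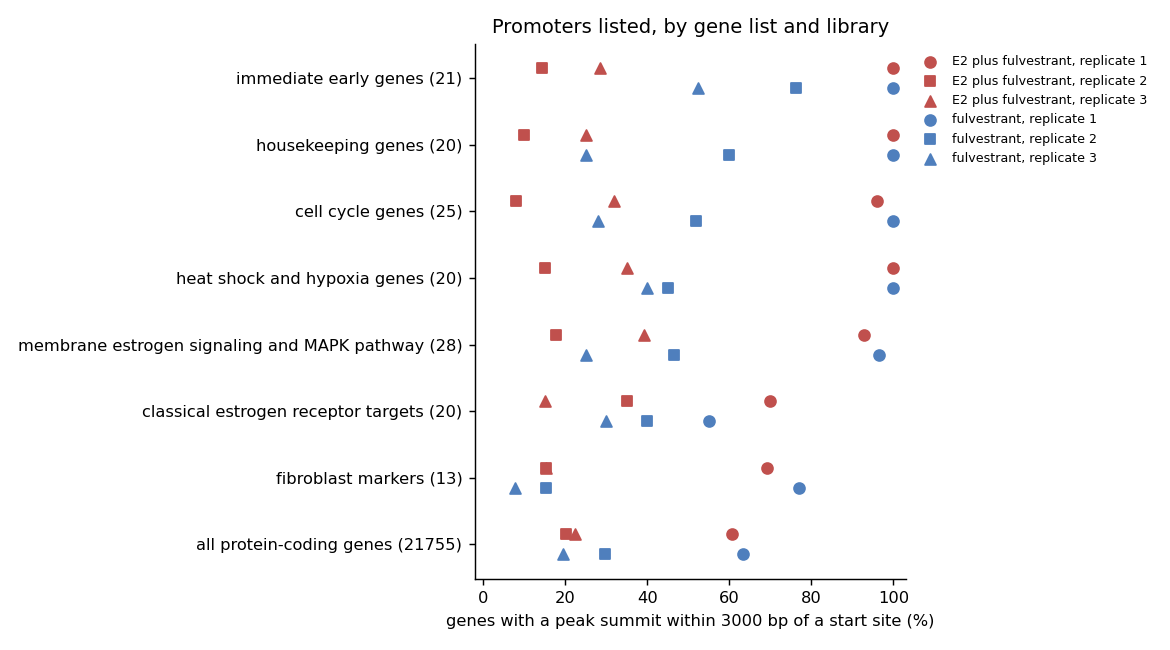
Percent of the genes of 7 lists with a promoter called (horizontal axis) in each of the 3 E2 plus fulvestrant and 3 fulvestrant libraries (points, coloured by treatment and marked by replicate number), with all protein-coding genes for reference. The immediate early list is called at 100%, 14.3% and 28.6% with E2 plus fulvestrant and 100%, 76.2% and 52.4% with fulvestrant, and the housekeeping list at 100%, 10% and 25% against 100%, 60% and 25%.

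The membrane estrogen and MAPK pathway, through which E2 can signal beside the nuclear receptor, held 28 genes, of which 5 were called in more E2 plus fulvestrant libraries (17.9%) and 9 in fewer (32.1%), near the 20.2% and 28.4% of all genes. Its shares were 92.9%, 17.9% and 39.3% against 96.4%, 46.4% and 25%, with the second libraries again furthest apart and the third libraries in the opposite order. The matrix genes, 25 collagens and other components of fibrotic tissue, were called in more libraries in 5 cases (20%) and in fewer in 6 (24%), with shares called of 80%, 32% and 24% against 88%, 28% and 24%. For the TGF-β and WNT pathways the counts were 4 (16.7%) and 6 (25%) of 24 genes. The median difference was 0 libraries for these 3 lists. In the replicate 1 pair the median log2 ratios of the matrix and TGF-β and WNT genes were 0.10 and 0.11, and that of the 10 classical targets called in both was -0.16.

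The genes that the study ties to E2 or to E2 plus fulvestrant were chosen on data that include libraries of this series, and so their calling is not independent evidence of a direction. Of 58 genes tied to E2, 13 were called in more E2 plus fulvestrant than fulvestrant libraries (22.4%) and 15 in fewer (25.9%). Of 34 tied to E2 plus fulvestrant, 6 (17.6%) and 9 (26.5%) were. Over all genes these shares were 20.2% and 28.4%. Among the former, Ltbp1, a binding protein of latent TGF-β, was called with 4.17 and 3.79 in 2 E2 plus fulvestrant libraries and with 3.16 in 1 fulvestrant library. Ncam1, a cell adhesion gene, was called with 4.27 and 3.31 against 4.10. Piezo2, a mechanosensitive channel gene, was called with 3.80 in 1 E2 plus fulvestrant library and with 3.95, 3.07 and 3.31 in 3 fulvestrant libraries. Adamts6, a metalloprotease gene, was called only in the replicate 1 libraries of these 6, with 7.60 and 6.78.

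Over 336 list entries, with some genes entered in several lists, 2 genes were called fully in one group, both with fulvestrant only. Over all genes, 0.23% were called fully with E2 plus fulvestrant only and 0.184% with fulvestrant only. Cnn1 encodes calponin, a contractile protein of smooth muscle and myofibroblasts. It was called in 3 fulvestrant and 3 vehicle libraries and in 0 E2 plus fulvestrant and 0 E2 libraries. The fulvestrant peaks had a fold enrichment of 3.20, 3.33 and 2.78, with summits at -629, -852 and -974 bp from the start site at position 22104445 of chromosome 9. None of these passed a q-value of 0.05, and the vehicle summits lay 148 bp downstream of the same start site in replicate 1, at -2663 bp from it in replicate 2, and farther upstream, near another start site, in replicate 3. Over all 21755 genes, Cnn1 and the olfactory receptor gene Olfr433 were the 2 called in all 6 libraries without estrogen and in none of the 6 with it, and 0 genes showed the reverse. Without the antagonist, full splits leaned the same way over all genes. There, 126 were called in 0 E2 and 3 vehicle libraries and 33 in 3 E2 and 0 vehicle libraries. The other list gene, Dlgap1, which encodes a synaptic scaffold protein, was also called in 2 E2 and 2 vehicle libraries, and its fulvestrant summits lay near the same start sites in replicates 1 and 3 and near another in replicate 2.

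The label of the cells was set against promoter calls of cell type markers. Of 13 fibroblast markers, 69.2%, 15.4% and 15.4% were called with E2 plus fulvestrant and 76.9%, 15.4% and 7.7% with fulvestrant, below the all-gene shares in replicates 2 and 3 of both treatments. Pdgfra, which marks fibroblasts, was called in the replicate 1 libraries alone (4.08 and 3.81). Of 8 myogenic markers, 50%, 25% and 25% were called with E2 plus fulvestrant and 25%, 12.5% and 12.5% with fulvestrant. All genes gave 60.7%, 20.2% and 22.3% with E2 plus fulvestrant and 63.3%, 29.7% and 19.5% with fulvestrant. At least 1 of the 6 libraries called 5 of these markers, while Myod1 and Pax7 were called in none. Over all genes, 20.2% were called in more E2 plus fulvestrant libraries and 28.4% in fewer, and the marker lists are short. Of the 8 myogenic markers 4 were called in more E2 plus fulvestrant libraries and 0 in fewer (median difference 0.5). Of the 5 smooth muscle and pericyte markers 0 were called in more and 2 in fewer. For the fibroblast and adipocyte markers the counts were 1 and 1, for the endothelial 2 and 3, the immune 3 and 1, the epithelial 2 and 1, and the Schwann cell markers 0 and 1.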

How the data were processed

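ATAC-seq peak lists of 12 libraries (4 treatments, 3 replicates each) were taken as deposited, and groups and replicate numbers were read from the labels. Per the labels and the study's methods, the authors trimmed reads with Trimmomatic, aligned them to mm10 with Bowtie2, removed duplicates with Picard and called peaks in each library separately with MACS2. The deposited lists give for each peak a fold enrichment, as a ratio of pileup to local background. They also give the -log10 p-value and the -log10 q-value written by the authors' peak caller, and the lists reach down to a p of about 0.01, so that they include many weak peaks. No read counts were used, and the depth per library is unknown.

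Peaks of the 6 libraries given fulvestrant were merged where they overlapped or touched, and each region was recorded as called or not in each library. Start sites and genes came from GENCODE M21, and sequences from RefSeq GRCm38. Single values were compared by exact permutation over the 6 libraries, which cannot give p below 0.1. Ranks of fold enrichment within each list, as normal scores, were fitted with limma 3.58.1 in R 4.3.3 for regions called in all 6 libraries, with Benjamini-Hochberg adjustment. Other steps used Python 3.11.15, pandas 2.3.3, scipy 1.17.1 and pysam 0.24.0, and the rank fit was tested on simulated data. Labels do not say whether replicates came from separate mice, so p-values measure the spread between these libraries, which may be technical. Gene lists are described by counts, with no test. Named regions are the first 8 promoter and 6 distal regions of each direction by their lowest percentile, and the 3 regions of smallest p each way where none passed. The receptors, Greb1, Pgr, Fos, Egr1 and Pdgfra are always given, and other list genes and the genes by rank at promoters were chosen after their values were seen, except list genes called fully in one group. The comparison, lists and tests were chosen with earlier results of these data known. The sequence of 1 region and the values of 1 list gene are not reported here. Alternatives covered peak thresholds, list length, merging, windows, rank measures, replicate numbers and leaving out each library.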

Additional observations from a re-analysis of the deposited data

How the results depend on the processing

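The call that no shared region differed in rank held under all 12 other settings (0 regions higher, 0 lower), with a smallest adjusted p of 0.0827 from limma on log2 fold enrichment in place of ranks. Tests of peak number, promoter share and motifs could not pass in any setting, since 3 libraries against 3, or fewer, cannot give p below 0.1. With peaks of a q-value of 0.05 or less, the log2 difference in peak number was -0.99, the differences in AGGTCA sites, AP-1 and CTCF were -0.905, -0.427 and -0.0154 points, one-group regions numbered 9 and 54 (E2 plus fulvestrant first) with 11.1% of each at promoters, and one-group promoters 0 and 5. At a -log10 p of at least 3 the peak number difference was -0.15, AP-1 -0.111 points, and 42 regions and 17 promoters were called with E2 plus fulvestrant only. With lists cut to 28792 peaks, AP-1 was -0.0447 points, and 53 regions (35.8% at promoters) and 29 promoters were called with E2 plus fulvestrant only. Replicate 1 alone gave -0.28 in log2 peak number, 2.88 points in promoter share, 38681 and 51595 regions and 1688 and 2234 promoters. Replicates 2 and 3 alone gave -0.00668 points for CTCF, 1024 and 1597 regions, 449 and 690 promoters, 35.1% of the fulvestrant regions at promoters and 0.0035 in similarity. A promoter window of 1000 bp gave 18 and 19 promoters and 7.78% and 7.24% of regions. Fewer peaks, libraries or bases in a window lower or raise such counts by construction, and the cause of the other changes was not tested. Merging by an overlap of at least 100 bp gave 78 and 190 regions.

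Leaving out one library at a time gave -0.25 to 0.46 for log2 peak number, -5.20 to 0.77 points for promoter share, -0.630 to 0.753 for AP-1, -0.130 to 0.148 for CTCF, 0.0147 to 0.0298 for the full element and 0.159 to 0.542 for the AGGTCA site. It gave 129 to 968 and 305 to 1488 regions, 23.6% to 29.6% and 18.9% to 51.3% of them at promoters, 77 to 319 and 62 to 615 promoters, and -0.0361 to 0.0136 for similarity. Peak number, AP-1 and CTCF turned negative without E2 plus fulvestrant replicate 1 (-0.25, -0.630 and -0.130) and without fulvestrant replicate 2 (-0.16, -0.0376 and -0.0218) or 3 (-0.21, -0.377 and -0.0517). The promoter share turned positive without E2 plus fulvestrant replicate 2 (0.77), and similarity without E2 plus fulvestrant replicate 1 (0.0136).

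Replicate numbers were shared by the groups, but the deviations of same-numbered libraries correlated at 0.31, -0.01 and 0.09 over shared regions, so the numbers were not taken as pairs, although the replicate 1 libraries stood apart together. Not every library correlated best with its own number. With the replicate block the rank fit made 0 calls in each direction (smallest adjusted p = 0.883, limma), and the paired differences were 0.03 in log2 peak number, -1.68 points in promoter share, and 0.022, 0.327, 0.113 and 0.025 points for the full element, AGGTCA site, AP-1 and CTCF, with sign-flip p no lower than 0.25, the smallest possible with 3 pairs.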
